A study of Zea mays with 229 samples.

Results

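The glossy genes of maize are named for mutants whose seedling leaves lose their waxy bloom. Here 7 genes of leaf wax were followed as possible targets of 23 maize transcription factors: gl1 (Zm00001d020557), gl2 (Zm00001d002353), gl4 (Zm00001d051787), gl8 (Zm00001d017111), gl13 (Zm00001d039631), gl15 (Zm00001d046621) and fdl1 (Zm00001d022227). They were chosen by identifier, with no measured value but with earlier results of these data known. All were looked up in the target column of the authors' deposited table, which names 19787 target genes. In that column 3 of the 7 genes stood, gl8, fdl1 and gl2, and the other 4 did not.

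The table came from the TARGET assay, in which leaf cells freed of their walls (protoplasts) take up a plasmid and RNA sequencing then shows which genes respond. The cells were from the etiolated second leaf of seedlings of the inbred line B73 and received plasmid p1107, either carrying a transcription factor or as an empty vector, and transfected cells were sorted by red fluorescence. Per the labels, 152 libraries had 1 of 23 factor plasmids and 77 had the empty vector, in 11 batches, with 114 libraries without nitrogen and 115 with nitrogen and 2 to 4 libraries per plasmid, nitrogen condition and batch. All groups share the B73 genotype, the digestion and the sort. The labels do not say whether replicates were separate preparations of protoplasts, nor which cell layers of the leaf the protoplasts came from, while wax is a product of the epidermis.

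An entry of the table is a regulator identifier paired with a target identifier, and it says that the authors listed the target as responding to the regulator's plasmid. No count, fold change, direction, error, p-value, nitrogen condition or batch stands beside an entry. A listed gene may therefore have risen or fallen, and no depth, interval or test can be given for it. The values below are counts of entries. Because the table has no expression values, the tissue could not be checked against marker genes. Sample titles tie 20 of the 23 regulators to a plasmid by identifier, and the other 3 are called by identifier. The plasmids KN1, NLP3 and ZmMYB38 have no identifier in their titles, so they could not be assigned to these 3. KN1 shares a batch with GLK44 and MYB21, NLP3 shares one with MYB56, and ZmMYB38 stands in other batches. The names of the wax genes come with the list of identifiers, since the files do not pair identifiers with names and 0 of the 7 matched the reference gene table, which is of another assembly. No positions or sequences are printed for that reason.

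The cuticle that seals a leaf is built from cutin and from waxes made of very-long-chain fatty acids. An elongase complex in the endoplasmic reticulum lengthens fatty acids by repeated rounds of condensation, reduction and dehydration, further enzymes turn the products into aldehydes, alcohols, alkanes and esters, and transporters carry these to the cell surface. Maize makes much of its epicuticular wax on juvenile leaves, the kind used here. Among the genes followed, gl4 encodes a condensing enzyme of the elongase, gl8 its ketoacyl reductase, gl2 an acyltransferase-like protein related to Arabidopsis CER2, gl1 a protein related to Arabidopsis CER3 and gl13 a transporter of the ABC family. The list is completed by a pair of transcription factors, gl15, an AP2-like factor that keeps leaf epidermis juvenile, and fdl1, a MYB factor of the seedling cuticle.

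Which regulators listed each gene was asked first. The gene most often listed was gl8, the reductase of the elongase, with 14 of 23 regulators (60.9%). Next was fdl1, the MYB factor, with 8 (34.8%), and gl2, the acyltransferase-like gene, had 1. In all, 23 of 161 possible pairs of a wax gene and a regulator were listed (14.3%), against 20.3% of possible pairs over the 19787 listed genes. The second share is over genes listed at least once, while the first also counts the 4 genes that are not in the target column. Over the 3 listed wax genes alone the share was 33.3% (23 of 69). These 3 are those that had at least 1 listing, so neither share is read as a difference from the background.

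**Figure D1:**
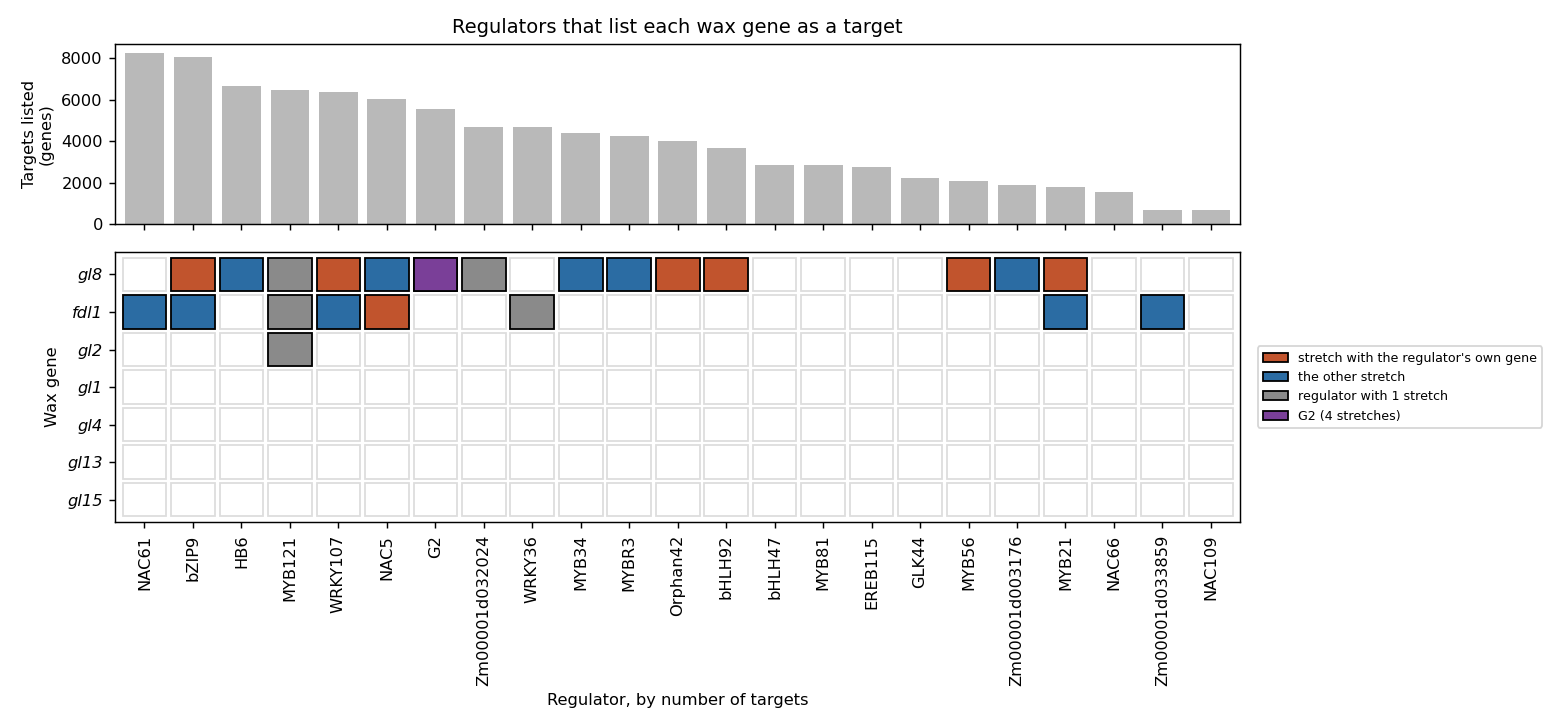
Columns are the 23 regulators in order of the number of genes listed for each, given by the bars above (genes, linear axis), and rows are the 7 wax genes. A filled square marks a listed pair, its colour the stretch of consecutive rows of the regulator in which it stands, and the row of gl8 has 14 filled squares, that of fdl1 8 and that of gl2 1.

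Against all listed genes, gl8, singled out here as the most often listed of the 7, stood high. The median gene was listed for 3 regulators, with quartiles of 1 and 7, and 5.32% of listed genes (1052 of 19787) had at least the 14 regulators of gl8. For fdl1 the corresponding share was 21.4%, or 4229 genes with at least 8 regulators. The single regulator of gl2 was the commonest case, shared with 26.1% of listed genes. Among the enzyme genes of the list, then, the reductase of the elongase was listed for many factors and the acyltransferase-like gene for 1. The condensing enzyme gl4 and the CER3-related gl1 were not in the target column, which does not say whether they were tested.

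**Figure D2:**
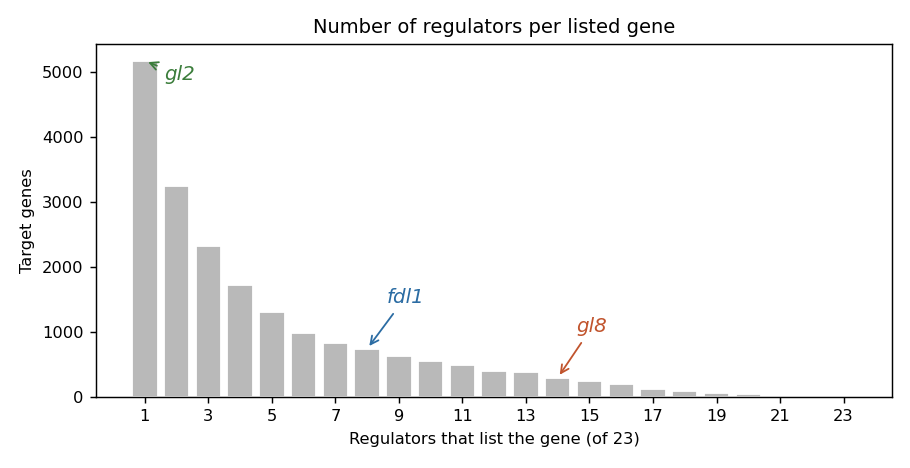
The horizontal axis is the number of regulators, of 23, that list a gene, and the height of a bar is the number of target genes with that number. Arrows mark gl2 in the tallest bar at 1 regulator, fdl1 at 8 and gl8 at 14, in the right tail.

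The regulators of gl8 came from several families. A plasmid's own share of all listed genes is the background for each of its entries, since a factor with a long list is more likely to hold any gene. Of the 5 MYB factors, 4 listed gl8: MYB121, which listed 32.8% of all target genes, MYB34 (22.2%), MYB56 (10.4%) and MYB21 (8.96%). MYB81 (14.5%) did not, and the MYB-related factor MYBR3 (21.5%) did. One of the 4 NAC factors listed it, NAC5 (30.6%), whereas NAC61, with the longest list of all (41.9%), NAC66 (7.73%) and NAC109 (3.33%) did not. Within pairs of relatives, WRKY107 (32.3%) listed gl8 and WRKY36 (23.6%) did not, bHLH92 (18.6%) did and bHLH47 (14.5%) did not, and G2 (28.1%), the Golden2 factor of chloroplast development, did and its relative GLK44 (11.2%) did not. The homeodomain factor HB6 (33.7%), bZIP9 (40.8%), Orphan42 (20.2%), Zm00001d032024 (23.7%) and Zm00001d003176 (9.45%) make up the 14, while EREB115 (13.9%) and Zm00001d033859 (3.35%) did not list it. No difference between relatives was tested, since an entry carries no value.

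Length of list went along with the listing of gl8. The 14 regulators that listed it had a median of 4543.5 targets, from 1772 for MYB21 to 8080 for bZIP9, and the 9 that did not had a median of 2744, from 658 for NAC109 to 8286 for NAC61. The ranges overlap, with gl8 present in the short lists of MYB21, MYB56 and Zm00001d003176 and missing from the longest. The part of list length in the listing was not tested. The entry of Zm00001d003176 stands in a stretch of 1335 rows of which every gene is also in the MYB56 list, so it cannot be counted as separate from that of MYB56, and without it gl8 had 13 regulators. A near-identical maize copy of the gene, gl8b, is named in the reference table, and reads from its 3' end that fit both copies could be counted for either. The sources used here do not say how such reads were treated.

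The MYB factor gene fdl1 was listed across families too. Both WRKY factors listed it, WRKY36 (23.6% of all target genes) and WRKY107 (32.3%). So did NAC5 (30.6%) and NAC61 (41.9%) of the 4 NAC factors and MYB21 (8.96%) and MYB121 (32.8%) of the 5 MYB factors. With bZIP9 (40.8%) and Zm00001d033859 (3.35%) they make 8. G2 (28.1%), GLK44 (11.2%), HB6 (33.7%), bHLH92 (18.6%), bHLH47 (14.5%) and MYBR3 (21.5%) did not list it. The 8 lists had a median of 6223 targets, from 663 for Zm00001d033859 to 8286 for NAC61, and the 15 lists without fdl1 had 2874, from 658 to 6677. Zm00001d033859 listed 3.35% of target genes, the second smallest share in the table, and fdl1 was among them. The part of list length in these listings was not tested.

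Only MYB121 listed gl2, and that factor also listed gl8 and fdl1, so that it held 3 of the 7 wax genes, more than any other regulator here. Its list is long, at 6491 genes or 32.8% of all listed genes, and 618 of them were listed for it alone, gl2 being one. NAC5 (30.6% of listed genes), WRKY107 (32.3%), MYB21 (8.96%) and bZIP9 (40.8%) held gl8 and fdl1 both. Out of 7 genes these counts are too small to be read as differing from the shares. Another 12 regulators held 1 wax gene and 6 held 0, namely EREB115, bHLH47, GLK44, MYB81, NAC66 and NAC109. The lists of those 6 ran from 658 to 2874 genes (3.33% to 14.5% of listed genes). Lists in that range also held wax genes under Zm00001d033859 (663 genes), MYB21 (1772), Zm00001d003176 (1870) and MYB56 (2063). The part of list length was not tested.

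The regulator sets of gl8 and fdl1 overlapped in part. They had 5 regulators in common, which is 35.7% of the 14 of gl8 and 62.5% of the 8 of fdl1. Over all 23 regulators 34.8% listed fdl1 and 60.9% listed gl8, so the overlap was close to these background shares. Listed for gl8 and not fdl1 were 9 regulators, HB6, G2, bHLH92, Orphan42, MYB34, MYB56, MYBR3, Zm00001d003176 and Zm00001d032024, and listed for fdl1 and not gl8 were 3, NAC61, WRKY36 and Zm00001d033859. Of the 5 in common, 4 have lists of at least 6045 genes, and MYB21 has 1772.

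Listings were also counted by batch. The 20 matched regulators fall in 9 batches, G2 in 2 of them, and the factors of a batch share empty vector libraries if each was compared within its batch, on which the sources used here are silent. A regulator that listed gl8 was found in 8 of the 9 batches, the exception being the batch whose 1 matched factor is NAC66. In 5 of those 8 batches another factor of the same batch did not list gl8. For fdl1 there were 4 such batches, and in all 4 some factors listed it and others did not. Of the 8 regulators of fdl1, 3 (NAC5, NAC61 and WRKY107) were of 1 batch, whose other matched factor, bHLH92, did not list it, and without that batch fdl1 had 5 regulators. Under G2, which has libraries in 2 batches, gl8 was entered 2 times, and the batch of an entry is not given. Repeated entries were common under G2. Its 4 stretches of rows, of 786, 2536, 2317 and 1701 rows, hold 5569 distinct genes. The 2 entries are therefore not read as a result about gl8.

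The order of rows in the table adds 1 more description. Rows fall into 42 stretches of consecutive rows of 1 regulator. Of the 23 regulators, 16 have 2 stretches each, 6 have 1 and G2 has 4, and the sources used here do not say what a stretch means. A regulator's own gene, which the plasmid carries where a title ties the regulator to a plasmid, gives a point of comparison. It stands in the table for 22 regulators, among them the 3 with no such tie. In 20 of 23 rows it was within the first 10% of its stretch, and in 9 at its very top. For the regulators with 2 stretches, gl8 stood in the stretch with the own gene for 6 (MYB21, MYB56, Orphan42, WRKY107, bHLH92 and bZIP9) and in the other stretch for 5 (HB6, MYB34, MYBR3, NAC5 and Zm00001d003176). Under G2 the own gene stood in 2 of the 4 stretches and gl8 in the other 2. For fdl1 the own-gene stretch held it under NAC5 alone, and the other stretch held it under 5 regulators, MYB21, NAC61, WRKY107, bZIP9 and Zm00001d033859.

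Under the 4 regulators that listed both genes and have 2 stretches, gl8 and fdl1 were always in different ones. With MYB21, WRKY107 and bZIP9, gl8 was in the stretch with the own gene and fdl1 in the other, and with NAC5 it was the reverse. The own gene headed its stretch, in row 1, under MYB21, WRKY107 and bZIP9, but under NAC5 it was in row 915 of 1544, so the stretch that holds it is less clearly marked there. As background, 566 genes were listed for all 4 of these regulators, and 5.16% of the pairs among them were in different stretches for all 4, while 8.49% were in the same stretch for all 4. For a single regulator, 38.0% (NAC5) to 48.7% (bZIP9) of the pairs of its genes were in different stretches. These shares describe the table, the pair was looked at after its rows had been seen, and no test was made.

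**Figure D3:**
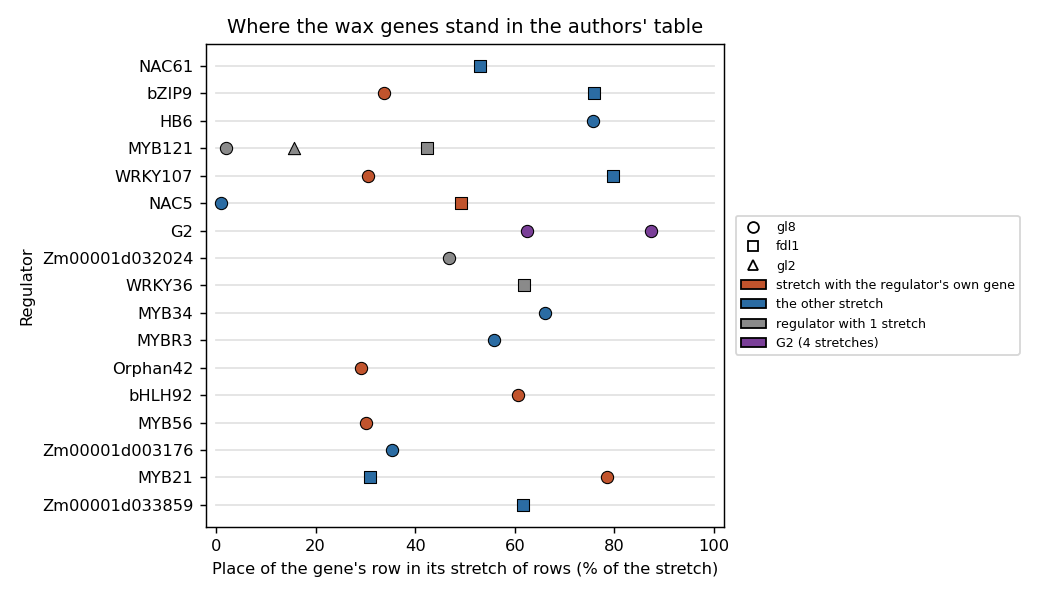
The horizontal axis is the place of a gene's row within its stretch of rows, as a percent of the stretch's length, with 0 at the top of the stretch. Each line is 1 regulator that lists a wax gene, the shape of a point gives the gene and its colour the stretch, and gl8 and fdl1 have different colours wherever both stand on a line of a regulator with 2 stretches.

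Within stretches the place of gl8 varied widely. It was in row 48 of 4501 (1.07%) under NAC5 and in row 134 of 6491 (2.06%) under MYB121, 2 of its 15 rows that were in the first 10% of a stretch. At the other end it was in row 1486 of 1701 (87.4%) in 1 of the G2 stretches and in row 413 of 526 (78.5%) under MYB21. Over its 15 rows the median place was 46.8%. For fdl1 the 8 places ran from 31.0% under MYB21 to 79.6% under WRKY107, with a median of 57.3%, and gl2 was at 15.7% under MYB121. The sources do not say how rows were sorted, so a place is not a size of response.

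Genes with the most similar regulators were named by the Jaccard index, the number of shared regulators divided by the number that list either gene, over 23 regulators. Closest to gl8 were Zm00001d002707 and Zm00001d045139, each listed for 14 regulators of which 13 were those of gl8, an index of 0.867. Both had WRKY36 in place of MYB21. Closest to fdl1 was Zm00001d029051, listed for the same 8 regulators and for HB6 (0.889), followed by Zm00001d016947 with 7 shared of its 8 (0.778). The index of gl8 with fdl1 was 0.294. The files give no names for these 4 genes.

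The 4 remaining genes, gl1, gl4, gl13 and gl15, did not stand in the target column under any regulator. Genes that were too lowly expressed to be tested, that missed the threshold or that did not respond cannot be told apart, because the sources used here give neither the genes tested nor the thresholds. The condensing enzyme gl4 and the reductase gl8 act in 1 complex, and of these only gl8 was listed. In maize gl15 is restrained by microRNA172, which builds up as leaves become adult while microRNA156 declines. The reference table names 4 MIR172 genes and 11 MIR156 genes, and 0 of these 15 names stood in the target column. Other microRNA names of that form stand there, and 5 matched the reference. A microRNA gene that the reference does not name could not be looked up. A missing name has the same limits as a missing wax gene.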

How the data were processed

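RNA of sorted maize leaf protoplasts was read with Lexogen QuantSeq 3' libraries, per the labels' protocols. The submitters' processing notes name the build B73 RefGen_v4 and the tools featureCounts and edgeR, with no versions or thresholds. The authors deposited 1 table of text identifiers (no measured unit) with 94256 rows and 92485 distinct pairs. Depth per library is unknown.

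Distinct pairs were used. The 7 genes were matched by exact identifier, and regulators were matched to plasmids by the identifier in sample titles. The share of listed genes per regulator was the background, with 19787 genes as denominator. Genes and comparisons were chosen with earlier results of these data known, and row-order descriptions after their values were seen. Named genes were all 7 members and, for the 2 with the most regulators, the 2 genes of highest Jaccard index. Promoter motifs, and further wax genes, could not be looked up without sequences or paired names. No test was made. The counting of stretches and the index were checked on a small made-up table. Python 3.11.15, numpy 2.4.6, pandas 2.3.3 and matplotlib 3.10.9 were used.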

Additional observations from a re-analysis of the deposited data

How the results depend on the processing

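The number of listed wax genes (2 to 3), their entries (17 to 23) and the regulators that held at least 1 of them (13 to 17) stayed within 1.5 times the reported counts in all 12 alternatives run. Of these, 9 left out the matched regulators of 1 batch each, with the 3 unmatched ones always kept. Another kept only regulators matched to a plasmid. The stretch of Zm00001d003176 whose genes are all in the list of MYB56 was left out in 1, and 1 kept only G2 entries made 2 times. Each left most regulators in place, so the counts had little room to move, and 3 to 2 listed genes is at the limit itself. The G2 alternative could not change them, since gl8, the only wax gene under G2, was entered 2 times. Without the matched regulators of the batch of MYB121, gl2 had 0 regulators. Without those of the batch of NAC5, NAC61 and WRKY107, fdl1 had 5. Counted in batches in place of regulators, fewer by construction, gl8 had 8 and fdl1 had 4. With shared regulators divided by the smaller set, many genes tie at the highest value, 7372 for gl8 and 4533 for fdl1, since it is reached whenever one regulator set lies within the other. Of the 2 named genes each, 0 for gl8 and 1 for fdl1 (Zm00001d029051) were among them. Over genes with at least 2 regulators, 26.0% of possible pairs were listed in place of 20.3%. Stricter thresholds and leaving out replicates could not be run without values. No paired analysis was possible because an entry carries no replicate.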

Other observations

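Genes with the identifiers next to those of the wax genes were counted, because genes close together can share reads at their 3' ends. The identifier before fdl1 was not in the target column, and the one after it, Zm00001d022228, was listed for 14 regulators, 6 of them among the 8 of fdl1. As background, 14 regulators are 60.9% of the 23, and gl8, also listed for 14, shared 5 with fdl1. The identifiers before and after gl8 had 1 and 3 regulators, of which 1 each was shared with gl8. Zm00001d002352, before gl2, had 2 regulators, 0 of them shared with gl2. Beside the genes that were not listed, Zm00001d020556, before gl1, had 6 regulators, Zm00001d046620, before gl15, had 2 and Zm00001d051788, after gl4, had 1, and the other 5 neighbours of these genes were not in the target column. The sources used here give neither the strand setting of the counting nor the distance between these genes, and the neighbours' part in the listings was not tested.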
